A study of Mus musculus with 2 samples.

Results

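The miRNAs described here are encoded inside the Hox clusters: mmu-miR-10a, mmu-miR-10b, mmu-miR-615-3p, mmu-miR-615-5p, mmu-miR-196a and mmu-miR-196b, written below without the prefix for the mouse. They were chosen by name, from the place of their genes, and all 6 were on the array, of 696 mouse miRNAs in all. The comparison was of the 3rd mammary gland (the gland) with the inter mammary gland region (the flank), which lies between glands 3 and 4, in untreated ICR mouse embryos at E13.5. For each region 100 ng of total RNA, carrying the dye Cy3, was hybridized to 1 Agilent 1-colour miRNA array, and both arrays were read in 1 scan. The number of embryos behind each RNA sample is not given in the sources used here. The gland and the flank lie at different levels of the body axis, so tissue and axial position changed together between the samples and cannot be told apart.

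Hox genes encode homeodomain transcription factors that give cells along the head to tail axis their positional identity, and the order of the genes in each cluster follows the order of their expression domains along that axis. The miRNA genes of the clusters are transcribed in domains that resemble those of the Hox genes beside them, and several Hox mRNAs are known targets of these miRNAs. miR-196 directs the cleavage of Hoxb8 mRNA, and miR-10b is known to repress HOXD10 in breast cancer cells. Mammary glands of the mouse form as epithelial buds over a specialised mesenchyme at set places along the flank, which makes positional genes of interest in this tissue.

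Of the 6 Hox cluster miRNAs, 5 were detected in both regions and miR-615-5p in neither. The signals of miR-10a, miR-10b, miR-615-3p and miR-196b were 1.16-fold to 1.36-fold as high in the gland as in the flank, and that of miR-196a was 1.04-fold lower, or 1.06-fold higher without scaling between the arrays. The highest of these, miR-615-3p, had only 1 of its 4 probes detected on both arrays, at 1.25-fold. No member reached 1.5-fold: 0 of 5 passed in either direction, beside 2.11% of the 284 miRNAs detected in both regions that were higher and 9.15% that were lower. Under another scaling, set by all probes, 1 passed (miR-615-3p), beside 19 of the 284 that were higher and 22 that were lower. The median log2 ratio of the 5 miRNAs, gland over flank, was 0.34, against 0.048 for all 284. With 1 array per region there was no replicate check and no test, and each standard error (SE) below is over the spots of a miRNA, which is technical only. In whole tissue, fewer cells that make a miRNA and less of it per cell cannot be told apart.

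The array reads each miRNA with several probes, each printed as several spots, and the signal is the background-subtracted brightness of a spot in arbitrary units. Signals of the gland were multiplied by 0.914, which made the 75th percentile equal on both arrays over the probes that each had detected. Detection of a probe needed over 50% of its spots to be well above background, and detection of a miRNA needed 1 such probe or more. Negative control spots had a mean signal of 3.81 ± 5.28 (SD, 432 spots) on the array of the gland and 2.23 ± 5.07 (SD, 428 spots) on that of the flank. Probes differ in brightness for the same amount of RNA, so each signal was compared between the regions, and a signal above that of another miRNA does not mean more RNA.

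The mature sequences are shown because the seed (bases 2 to 8, in capitals), which pairs with target mRNAs, groups the miRNAs into families, and because members of a family differ so little that their probes may not read them apart. They are those of RefSeq for GRCm38.p6, which held all 6. An array name with no arm was taken as the 5p strand.
miR-10a: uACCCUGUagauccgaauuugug
miR-10b: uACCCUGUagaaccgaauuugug
miR-615-3p: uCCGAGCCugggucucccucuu
miR-615-5p: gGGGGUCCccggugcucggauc
miR-196a: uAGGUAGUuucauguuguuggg
miR-196b: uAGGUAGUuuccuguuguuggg
miR-10a and miR-10b share the seed ACCCUGU with no other mature miRNA of the table, and they differ at 1 of 23 bases (U12A, counted from 1 at the 5′ end, with the base of miR-10a first). miR-196a and miR-196b share the seed AGGUAGU, also held by no other, and differ at 1 of 22 bases (A12C, with the base of miR-196a first). The sequences of the probes were not used here, and how far a probe reads the other member of its family was not tested. miR-615-3p and miR-615-5p, the strands of 1 hairpin, have seeds of their own. Guanine and cytosine made up 63.6% of the bases of miR-615-3p and 77.3% of those of miR-615-5p, against 40.9% to 45.5% in the other 4.

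The miR-10 genes lie toward the 3′ part of their clusters, where Hox genes with anterior domains are found. In the RefSeq annotation of GRCm38.p6, Mir10a lies between Hoxb5 and Hoxb4, within the span of Hoxb3, and its mature strand is at chr11:96317186-96317208 on the plus strand. The signal of mmu-miR-10a was 1141.0 ± 21.2 (SE) in the gland after scaling, 1248.8 before it, and 870.3 ± 11.6 (SE) in the flank. The log2 ratio was 0.39 ± 0.033 (SE), or 1.31-fold, and 24 of the 284 miRNAs had a higher ratio. Both of its probes were higher in the gland with no overlap of spots. The 10 scaled spots of the first probe lay between 577.1 and 664.5 in the gland, above the 431.6 to 466.1 of its 8 spots in the flank. The second probe had 10 spots between 1490.0 and 1836.5 in the gland and 10 between 1180.3 and 1407.8 in the flank. The log2 ratios of these probes, 0.45 ± 0.025 (SE) and 0.37 ± 0.044 (SE), were both above that of miR-10b.

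Mir10b lies within the spans of Hoxd3 and Hoxd4, with the mature strand at chr2:74726074-74726096 on the plus strand. The signal of mmu-miR-10b was 2198.3 ± 20.3 (SE) in the gland after scaling, 2405.8 before it, and 1895.2 ± 22.0 (SE) in the flank. The log2 ratio was 0.21 ± 0.021 (SE), or 1.16-fold, and 76 of the 284 miRNAs had a higher ratio. The spots of both probes overlapped between the regions after scaling, and neither did before it. For the first probe the scaled spots ran from 1180.2 to 1445.8 in the gland and from 968.5 to 1194.1 in the flank. For the second they ran from 2942.3 to 3227.5 and from 2588.1 to 2978.9. The means of both probes were higher in the gland, by 0.28 ± 0.044 (SE) and 0.19 ± 0.024 (SE) on the log2 scale. The ratio of miR-10a was above that of miR-10b by 0.18 ± 0.039 (SE) on the log2 scale, a difference that a scale factor between the arrays cannot change. Under quantile normalization, which is no single factor, it was 0.031.

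Mir615 lies within Hoxc5, between Hoxc6 and Hoxc4, with the 3p strand at chr15:103014969-103014990 and the 5p strand at chr15:103014926-103014947, both on the plus strand. The signal of mmu-miR-615-3p was 60.9 ± 1.64 (SE) in the gland after scaling, 66.7 before it, and 44.9 ± 1.61 (SE) in the flank. The log2 ratio was 0.44 ± 0.065 (SE), or 1.36-fold, and 16 of the 284 miRNAs had a higher ratio. This value averages all 4 probes, of which 1 was detected on both arrays. The first and second probes gave mean signals before scaling of -1.12 and 5.22 in the gland and of -1.46 and -2.60 in the flank, with no spot well above background. The third probe had 5 of 5 spots well above background in the gland, at a scaled mean of 37.6 ± 4.06 (SD, 5 spots), and 2 of 5 in the flank, at 22.1 ± 10.6 (SD, 5 spots). Only the fourth was detected on both arrays. Its 5 scaled spots lay between 190.5 and 219.7 in the gland, above the 157.2 to 166.2 of the flank, and its log2 ratio was 0.32 ± 0.043 (SE), which is the ratio of the miRNA where probes not detected on both arrays were left out, a choice made after the data were seen. When all probes set the 75th percentile, miR-615-3p passed 1.5-fold at a log2 ratio of 0.598, and after a normexp background correction, which models the background and adds an offset, its log2 ratio was 0.22.

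mmu-miR-615-5p was at background in both regions. Of its spots, 0 of 20 in the gland and 0 of 19 in the flank were well above background, and the mean signals before scaling were -5.13 and -3.70. No ratio was taken. The strands of this hairpin thus differed in detection, although signals of different probes do not give the ratio of the strands.

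The miR-196 genes lie further toward the 5′ part of the clusters, where Hox genes with posterior domains are found, on the side of the Hox9 genes that faces the genes of higher number. Mature miR-196a comes from Mir196a-1, between Hoxb13 and Hoxb9 (chr11:96265187-96265208, plus strand), and from Mir196a-2, between Hoxc10 and Hoxc9 (chr15:102973365-102973386, plus strand), and the array cannot tell these sources apart. The signal of mmu-miR-196a was 568.2 ± 9.86 (SE) in the gland after scaling, 621.9 before it, and 588.2 ± 30.6 (SE) in the flank. The log2 ratio was -0.050 ± 0.079 (SE), within its SE of 0, and its direction turned with the scaling: it was 0.080 with none, 0.109 when all probes set the 75th percentile, 0.069 with the median of the detected probes and 0.112 with the unscaled totals of the deposited table. The spots of all 4 probes overlapped between the regions, with log2 ratios of -0.002, -0.12, 0.029 and -0.083. The scaled means of the first probe were 313.1 in the gland and 313.5 in the flank. The third probe was read with the least precision, since 1 of its 5 spots in the flank was at 200.7 and the other 4 at 679.9 to 893.8. That spot was not marked as an outlier by the software. With the median of the spots of each probe in place of the mean, the log2 ratio of miR-196a was -0.11.

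Mir196b lies between Hoxa9 and Hoxa10, with the mature strand at chr6:52230129-52230150 on the minus strand. The signal of mmu-miR-196b was 288.3 ± 4.36 (SE) in the gland after scaling, 315.5 before it, and 227.4 ± 1.88 (SE) in the flank. The log2 ratio was 0.34 ± 0.025 (SE), or 1.27-fold, and 33 of the 284 miRNAs had a higher ratio. Neither probe had spots that overlapped between the regions. The first had 10 scaled spots between 155.0 and 190.9 in the gland and 10 between 120.2 and 146.6 in the flank. The second had 10 between 368.2 and 441.6 and 8 between 309.3 and 329.4. The ratio of miR-196b was above that of miR-196a by 0.39 ± 0.083 (SE) on the log2 scale, although they differ by 1 base. The difference was 0.33 to 0.44 over the 6 alternative settings that changed it, the others leaving it the same to 3 decimals.

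**Figure D1:**
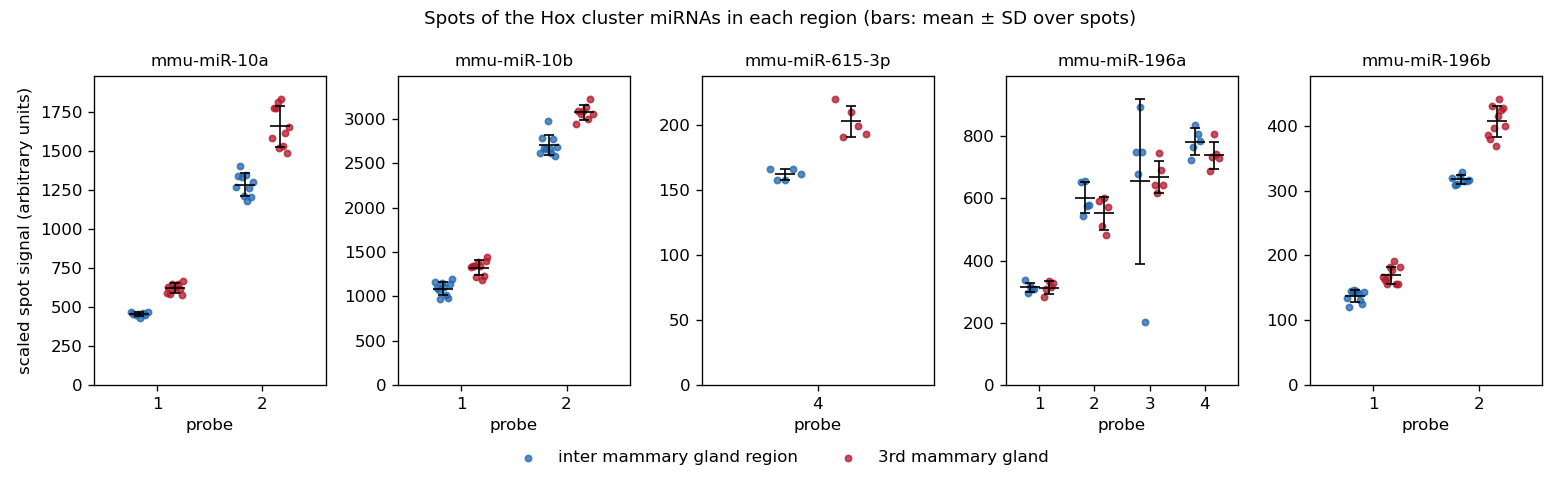
Scaled spot signal in arbitrary units (vertical axis, from 0) of each probe detected on both arrays (horizontal axis), for the inter mammary gland region (blue) and the 3rd mammary gland (red), with points for spots and bars for the mean ± SD over spots. Spots of miR-10a, miR-196b and probe 4 of miR-615-3p do not overlap between the regions, those of miR-10b overlap at the edges, and those of miR-196a overlap for all 4 probes.

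Over the 6 miRNAs, 11 of 18 probes were detected on both arrays, and 8 of these had a ratio above 0. The 3 below 0 were all of miR-196a, and before scaling their means were higher in the gland too. The scaled spots of 5 of the 11 did not overlap and were higher in the gland, where 19.3% of all 555 probes detected on both arrays were higher without overlap and 16.8% lower. Before scaling the count was 7 of 11, against 32.4% and 13.3% of all probes. Probes of 1 miRNA read the same RNA and are not independent.

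By Hox position, the ratios formed no single order from the anterior to the posterior members. From the highest to the lowest they were those of miR-615-3p, miR-10a, miR-196b, miR-10b and miR-196a. Of the 9 alternatives that changed differences between these miRNAs, the highest was miR-615-3p in 4 and miR-10a in 5, and the lowest was miR-196a in 9. In 3 of the 9, among them the setting with only the probes detected on both arrays, miR-615-3p came below both miR-10a and miR-196b. The ranges of 1 SE overlapped between miR-615-3p and miR-10a and between miR-10a and miR-196b. Whether these neighbours differed was not tested. miR-10b lay below miR-196b by a difference of -0.13 ± 0.033 (SE) on the log2 scale, which was 0.000 after quantile normalization. The mean log2 ratio was 0.30 for the miR-10 pair and 0.15 for the miR-196 pair, a difference of -0.16 ± 0.046 (SE) that ran from -0.23 to -0.14 over the 6 alternatives that changed it. Its members did not share it. miR-196a lay below the mean of the miR-10 pair by a difference of -0.35 ± 0.082 (SE), whereas the difference for miR-196b was 0.040 ± 0.032 (SE), and -0.016 after quantile normalization. miR-615-3p lay above the miR-10 pair by 0.14 ± 0.068 (SE), but at -0.048 from it after normexp.

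**Figure D2:**
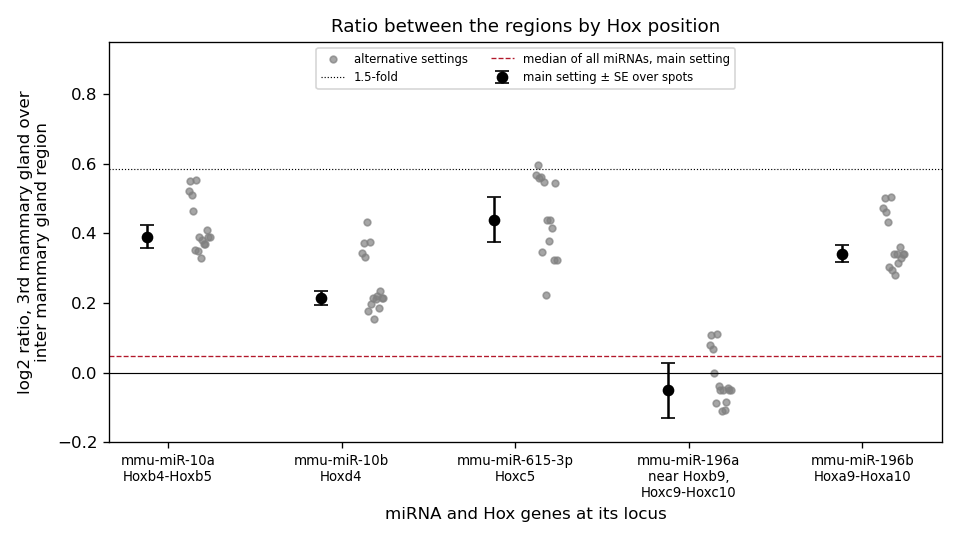
Log2 ratio of signals, gland over flank (vertical axis), of the 5 detected miRNAs in the order of the Hox genes at their loci (horizontal axis), with black points for the main setting ± SE over spots and grey points for the alternative settings. The ratio of miR-196a lies at -0.050 and on either side of 0 among the alternatives, and those of the other 4 miRNAs lie above 0 in each setting that gave a value.

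Beside all miRNAs, 4 of the 5 had a ratio above 0, where 164 of 284 (57.7%) did, and 34 of the 284 lay at or above the median of the 5. The middle of the whole distribution, from the lower to the upper quartile, ran from -0.14 to 0.23 on the log2 scale. It held miR-10b and miR-196a, and the other 3 lay above it. The scaling moved all ratios together: the median of all 284 was 0.18 with no scaling and 0.21 when all probes set the 75th percentile. The median of the Hox cluster miRNAs lay above that of all miRNAs by 0.29, and by 0.16 to 0.31 over 15 alternatives. Past 1.5-fold, 6 of the 284 were higher and 26 lower (18.8% of the changed ones higher). The balance was 15 and 23 with no scaling (39.5% higher), 19 and 22 when all probes set the 75th percentile (46.3%), 15 and 23 with the median of the detected probes (39.5%), 14 and 22 after quantile normalization (38.9%), and 20 and 21 with the deposited totals (48.8%).

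**Figure D3:**
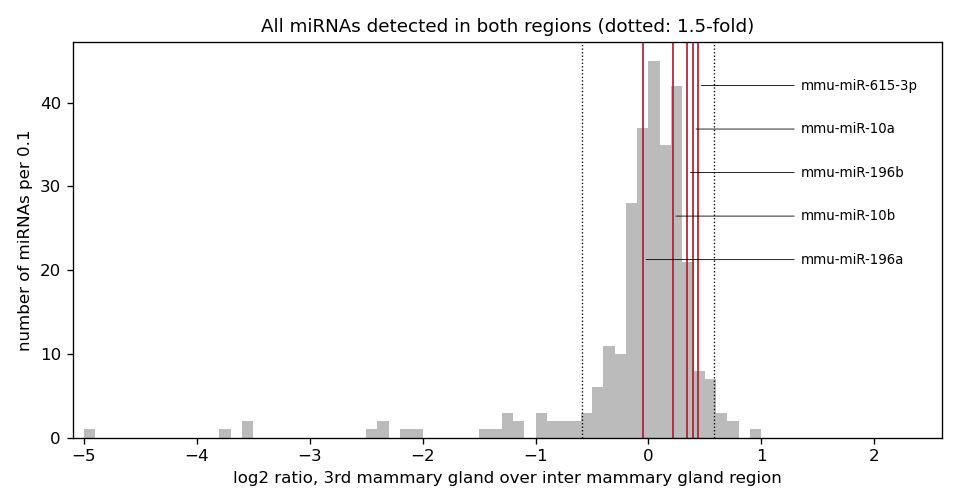
Number of miRNAs (vertical axis) in steps of 0.1 of the log2 ratio of signals, gland over flank (horizontal axis), for the 284 miRNAs detected in both regions, with red lines for the Hox cluster miRNAs and dotted lines at 1.5-fold. All 5 red lines lie between the dotted lines, from -0.050 to 0.44.

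Of the passenger strands, which are cut from the same hairpins and mostly degraded, miR-10b* was detected in both regions, at 23.2 in the gland and 20.7 in the flank. Its log2 ratio was 0.17 ± 0.065 (SE), but only 2 of its 4 probes were detected on both arrays. Their ratios were -0.057 ± 0.102 (SE) and 0.13 ± 0.081 (SE), and with these probes alone, a choice made after the data were seen, the ratio of miR-10b* was 0.046 ± 0.063 (SE). Over the alternatives it ran from 0.008 with scaled total signals to 0.515 with the mean of the log2 ratios of its probes. miR-10a* was not detected in either, with 3 of 20 spots well above background in the gland and 1 of 20 in the flank, though the software's own call gave it as detected in both. miR-196a* had 0 of 19 and 0 of 20 such spots. miR-196b* was not found on the array under that name.

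The mir-10 family also has members outside the Hox clusters. miR-99a, miR-99b and miR-100 share the seed ACCCGUA among themselves and not with miR-10, and miR-100 is shown because it shares the run GUAGAUCCGAA with miR-10a, at bases 7 to 17 of miR-10a and 6 to 16 of miR-100, while the seeds differ.
miR-10a: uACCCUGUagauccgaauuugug
miR-100: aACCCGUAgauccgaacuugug
The signal of miR-100 was 619.5 in the gland and 595.6 in the flank, a log2 ratio of 0.057 ± 0.046 (SE). That of miR-99a was 524.6 and 354.6, a log2 ratio of 0.57 ± 0.033 (SE), or 1.48-fold, and without scaling 1.62-fold. miR-99b was at 0.16 ± 0.028 (SE), miR-125a-5p, a homologue of the worm lin-4 miRNA, at 0.28 ± 0.033 (SE), and miR-125b-5p, of the same kind, at 0.41 ± 0.042 (SE). These 5 relatives had a median log2 ratio of 0.28, beside 0.34 for the Hox cluster miRNAs. Past 1.5-fold were 0 of the 5, beside 2.11% of the 284 miRNAs that were higher and 9.15% that were lower. The log2 ratios ranged from -0.050 to 0.44 for the Hox cluster miRNAs and from 0.057 to 0.57 for these relatives, so the ranges overlapped. Whether a place inside a Hox cluster bears on the ratio was not tested.

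The miRNAs nearest in ratio to each member were found over the 284, and over 2 arrays a like ratio is all that is shared. They were miR-183 (0.395) and miR-18a* (0.398) for miR-10a, and miR-26a (0.21) and miR-296-5p (0.22) for miR-10b. For miR-615-3p they were miR-30c (0.44) and miR-451 (0.44), and for miR-196b miR-200c (0.34) and miR-335-5p (0.34). For miR-196a they were let-7a (-0.050) and miR-434-5p (-0.046). let-7a also shares the run AGGUAGU with miR-196a, at bases 3 to 9 where miR-196a has it at bases 2 to 8, so their seeds differ.

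Lists of miRNAs that mark other cell types were read beside these values. Of all 284 miRNAs detected in both regions, 2.11% were higher in the gland past 1.5-fold and 9.15% lower. All 4 miRNAs of striated muscle were lower in the gland by over 1.5-fold, with a median log2 ratio of -1.24 and summed signals of 1504.0 in the gland and 3609.6 in the flank. The brightest of them, miR-133b, was 2.40-fold lower. All 7 miRNAs of epithelium were detected in both regions and 0 passed 1.5-fold, with a median of 0.34 and sums of 10009.7 and 9530.1. The brightest was miR-205, at -0.021, which turned to 0.109 without scaling. The 7 went both ways, from -0.31 for miR-203 to 0.51 for miR-200a, which passed 1.5-fold without scaling, at 1.56-fold. The 3 of mesenchyme found on the array, 0 of them past 1.5-fold, had a median of 0.26 and sums of 25243.3 and 20690.9, the brightest being miR-199a-3p. The 5 of blood had a median of -0.060 and sums of 5675.3 and 4330.5, with miR-451 brightest, at 5191.7 and 3821.9 and so most of both sums. Its log2 ratio was 0.44 and that of miR-144 was 0.15, whereas miR-486 (-0.39), miR-223 (-0.105) and miR-142-3p (-0.060) lay below 0, the last 2 turning to 0.025 and 0.070 without scaling. Of the vessel list 3 of 4 were detected and miR-145 was not, with miR-126-3p brightest, a median of 0.21 and sums over the list of 2161.3 and 2052.0. Of the neural list only miR-128 was detected, at -0.57, while miR-9, miR-124 and miR-137 were detected in neither region by the share of spots. The software's own call gave miR-9 and miR-137 as detected in the gland only, with total signals of 13.2 and 29.9 there. The sums over the neural list were 169.6 and 211.8. The part of tissue makeup in the ratios of the Hox cluster miRNAs was not tested.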

How the data were processed

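The authors quantified the scans with Feature Extraction (10.7.3.1 by the file header). The deposited intensity of each spot is background-subtracted, linear, below 0 for some dim spots, and was given no normalization across arrays. The deposited table equals the software's total intensity per miRNA, with 0.1 for one not called detected. GeneSpring GX was their tool for normalization, with no scaling stated. Each array held 14635 spots, 13920 of them for 1937 miRNA probes. Of these 38.1% were well above background on either array, and 0 were saturated.

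Control spots and outlier spots (1.67% for the gland, 2.51% for the flank; 2 and 5 of 120 member spots) were left out, spots were averaged per probe, the array of the gland was brought to the 75th percentile of the other (786.4 to 718.5), and probes were averaged per miRNA. The SE was propagated from the spots by the delta method. Ratios were taken only for miRNAs detected on both arrays. The normexp correction, with an offset of 50, was planned on the mean pixel signal. It was run on the median pixel signal with no local background, since the sources used here held only that signal. Named miRNAs are the members, their passenger strands, the mir-10 relatives, the 2 nearest in ratio to each member, and lists of cell type markers. Members and lists were chosen with earlier results of these data known. Steps were tested on simulated data with changes well past 1.5-fold, larger than the ratios of the members. Differences as small as those of the members were not covered by it. Python 3.11.15, numpy 2.4.6, pandas 2.3.3, matplotlib 3.10.9, R 4.3.3 and limma 3.58.1 were used.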

Additional observations from a re-analysis of the deposited data

How the results depend on the processing

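No paired analysis was possible because there was 1 array for each region. Values were recomputed in 15 other ways, 1 of them chosen after the data were seen (only probes detected on both arrays), and counts also at 2-fold. The log2 ratios of miR-10a (0.33 to 0.55), miR-10b (0.15 to 0.43), miR-196b (0.28 to 0.50) and miR-615-3p (0.22 to 0.598) were above 0 in each that gave a value, and that of miR-196a (-0.11 to 0.11) was above 0 in 4 and below it in 11. The median of the Hox cluster miRNAs, 0.34, was 0.47 with no scaling, 0.50 when all probes set the 75th percentile, 0.46 with the median of the detected probes, 0.43 after quantile normalization, 0.30 with scaled total signals, 0.50 with the deposited table, 0.22 after normexp, 0.28 where every spot had to be well above background, 0.32 with the median of spots, and 0.28 with dim miRNAs left out, which removes miR-615-3p. The difference between the miR-196 and miR-10 pairs, -0.16, was -0.23 after quantile normalization. The number of Hox cluster miRNAs past 1.5-fold was 1 (miR-615-3p) when all probes set the 75th percentile, and 0 otherwise. The number of all miRNAs past the threshold, 32, was 18 after normexp, 16 at 2-fold and at most 46, with detection as Feature Extraction called it, and the number higher, 6, was 13 with that detection, 12 with the mean of the log ratios of probes, 2 after normexp and 0 at 2-fold. The median of all miRNAs, 0.048, was -0.013 where every spot had to be well above background. A higher threshold lowers counts by construction, and another scale factor moves all log2 ratios by an equal amount. The offset of normexp draws the log2 ratios of dim signals toward 0, also by construction. For the rest the cause was not tested. Among the 5 detected members, signal over background limits miR-615-3p most, with 10 and 7 of 20 spots well above background.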
